A study of Oryza sativa Indica Group with 4 samples.

Results

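The genes described here are those of the Rubisco small subunit (RBCS) and of Rubisco activase (RCA) in rice, 6 loci chosen by name: LOC_Os02g05830, LOC_Os12g17600, LOC_Os12g19381, LOC_Os12g19394 and LOC_Os12g19470 for RBCS, and LOC_Os11g47970 for RCA. Of these, 5 had reads, as 7 transcript models, among 28458 loci and 35204 models with a read in the whole dataset. The 6 loci were listed with earlier results of these data known, so counts of members called are a description. LOC_Os12g19394 has no row in either table, and whether its model was among those counted is not given in the sources used here, so no level is given for it. Transcripts were counted in 4 RNA libraries from blades of the 4th leaf of the indica variety Zhongxian 3037, 1 library each for the mutant togr1-1 at 30 and 25°C and for the wild-type at 30 and 25°C. Seedlings were sampled at 22 days of age after 18 days at their temperature, and 100 mg of pooled blades made up each sample. togr1-1, called tog1 in the sample labels, is a spontaneous recessive mutant of that variety with a single amino acid substitution in TOGR1 (LOC_Os03g46610), a DEAD-box RNA helicase. TOGR1 itself had between 127 and 180 reads in each library, and the substitution itself is not visible in read counts, so the labels of the genotypes could not be checked by it.

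Rubisco fixes carbon dioxide in the Calvin cycle, and is among the most abundant proteins of green leaves. Its large subunit is encoded in the plastid and was not analysed here. The small subunit comes from a nuclear gene family, in which members can be very similar in sequence. Rubisco activase is an ATP-dependent chaperone that removes inhibitory sugar phosphates from the active sites of Rubisco, and is known for its sensitivity to heat. The comparison of temperatures within each genotype asks how leaf transcripts respond to growth at a moderately high temperature, and the comparison of genotypes asks whether that response needs TOGR1.

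The libraries held between 11959859 and 12371522 reads counted on transcript models. There was 1 library per condition and so no replicate: all intervals below are 95% intervals of counting error alone, and the tests compare libraries, not conditions. A model was called when its reads, as a share of the library, differed at least 2-fold between libraries and the exact binomial test gave a p-value, adjusted over all models, no larger than 0.001. Because the RNA came from whole leaf blades, fewer cells of a type and less RNA per cell cannot be told apart. Reads of near-identical genes may have been divided among the RBCS loci, or left out, in a manner not visible in these files, so the values of single RBCS loci are less certain than their sum.

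RBCS transcripts were low in a single library, that of the wild-type at 30°C, whereas the RCA transcript differed little between temperatures in both genotypes. The 4 RBCS loci with reads together took 1.29% of the togr1-1 library at 30°C (Wilson interval 1.28 to 1.29) and 1.37% of that at 25°C (1.36 to 1.38). In the wild-type they took 0.633% at 30°C (0.629 to 0.638), against 1.66% at 25°C (1.65 to 1.66). The RCA locus took 4.28% and 4.11% of the reads in togr1-1 at 30 and 25°C, against 3.45% and 3.40% in the wild-type at 30 and 25°C. RCA and RBCS together thus made up 5.57% and 5.48% of the togr1-1 libraries, and 4.08% and 5.06% of the wild-type libraries, in the same order of temperatures.

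**Figure D1:**
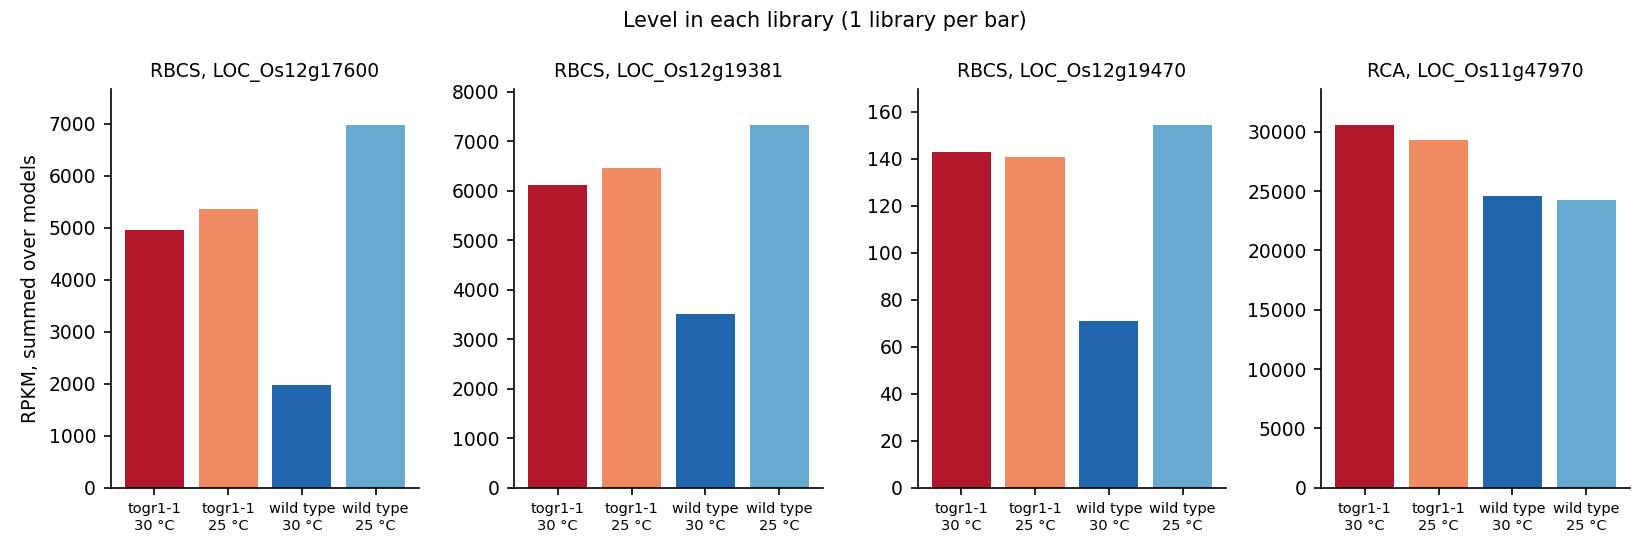
RPKM (reads scaled by transcript length and library size, summed over the models of a locus) in each library. The panels are LOC_Os12g17600, LOC_Os12g19381 and LOC_Os12g19470 for RBCS, and RCA, with 1 bar for each library and a separate scale for each locus. Each RBCS locus is lowest in the wild-type at 30°C, and RCA lies between 24283 and 30542 RPKM in all 4 libraries.

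RCA had the highest RPKM of the members with reads, though reads of near-identical RBCS genes may have been left out. On the RPKM scale, which divides reads by the length of the transcript and by the size of the library, its single model LOC_Os11g47970.1 stood at 30542 and 29311 in togr1-1 at 30 and 25°C. In the wild-type it stood at 24596 at 30°C and 24283 at 25°C. It ranked first of all models by RPKM in each of the 4 libraries. The files list only this model of RCA, so the splice forms of activase known from rice could not be separated.

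Among RBCS genes, LOC_Os12g19381.1 had the highest RPKM in each library. Its level was 6115 RPKM in togr1-1 at 30°C and 6456 at 25°C, and 3503 RPKM in the wild-type at 30°C, against 7323 at 25°C. LOC_Os12g17600.1 came next, with 4955 RPKM in togr1-1 at 30°C and 5356 at 25°C, and 1967 RPKM in the wild-type at 30°C, against 6969 at 25°C. Both were within the 9 highest models by RPKM in 3 of the libraries, and in the wild-type at 30°C LOC_Os12g19381.1 was the 8th and LOC_Os12g17600.1 the 20th. The order of the loci by RPKM was the same in all libraries.

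LOC_Os12g19470 was read far less, on a pair of models. Model LOC_Os12g19470.2 stood at 125 RPKM in togr1-1 at 30°C and 117 at 25°C, and at 63.0 RPKM in the wild-type at 30°C, against 134 at 25°C. Model LOC_Os12g19470.1 stood at 17.8 and 23.8 RPKM in togr1-1 at 30 and 25°C, against 8.04 and 20.0 RPKM in the wild-type at 30 and 25°C. LOC_Os12g19470.1 held 12.2% of the reads of the locus in togr1-1 at 30°C (Wilson interval 11.2 to 13.3) and 16.5% at 25°C (15.4 to 17.7). In the wild-type it held 11.1% at 30°C (9.70 to 12.6) and 12.7% at 25°C (11.7 to 13.7), so the share was highest in togr1-1 at 25°C, where its interval did not overlap those of the other libraries.

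The remaining RBCS models were at the limit of counting. LOC_Os02g05830, listed as the single model LOC_Os02g05830.2, had 0 and 4 reads in togr1-1 at 30 and 25°C, against 2 and 4 reads in the wild-type at 30 and 25°C. The 0 reads allow a level of up to 3 reads in the 12139238 of that library, counting error alone considered. LOC_Os12g17600.2 had 1 and 2 reads in togr1-1, against 2 and 3 in the wild-type, in the same order. LOC_Os02g05830.2 and LOC_Os12g17600.2 are therefore not described by folds, and a difference between libraries was not detectable at this depth.

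Between the temperatures, 0 of the 7 models passed in togr1-1, where 7.09% of all 32357 models tested were called. In the wild-type 4 of the 7 passed, all lower at 30°C, where 8.21% of 32564 models were called and 3.80% were called lower. The models were those of LOC_Os12g17600, LOC_Os12g19381 and both of LOC_Os12g19470, each of which encodes a small subunit. Over the 5 member models with at least 100 reads in all, the median log2 ratio was -0.08 in togr1-1 and -1.09 in the wild-type, against 0.06 and 0.10 over all models with that many reads (16983, less those without a read in 1 of the libraries compared). The remaining pair, LOC_Os02g05830.2 and LOC_Os12g17600.2, did not pass in either genotype.

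Of the members called, LOC_Os12g17600.1 had the largest ratio, with 27311 reads at 30°C in the wild-type, against 98848 at 25°C. This was a 3.54-fold fall (log2 ratio -1.82, Clopper-Pearson interval -1.84 to -1.81). In togr1-1 the same model had 69837 reads at 30°C against 76937 at 25°C, a log2 ratio of -0.11 (-0.13 to -0.10) that did not pass the 2-fold threshold. LOC_Os12g17600.1 was thus nearly level between the temperatures in the mutant libraries and low in 1 of the wild-type libraries.

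In the wild-type LOC_Os12g19381.1 had 46586 reads at 30°C, against 99493 at 25°C, and fell 2.09-fold (log2 ratio -1.06, interval -1.08 to -1.05). In togr1-1 it had 82539 reads at 30°C, against 88818 at 25°C (log2 ratio -0.08, interval -0.09 to -0.06). The fall of LOC_Os12g19381.1 in the wild-type was smaller than that of LOC_Os12g17600.1, and their intervals lay apart. LOC_Os12g19470.2 fell 2.13-fold in the wild-type, with 1642 reads at 30°C, against 3570 at 25°C. LOC_Os12g19470.1 fell 2.49-fold, with 204 reads at 30°C, against 519 at 25°C. In togr1-1 their log2 ratios were 0.09 and -0.42, the lower of which, for LOC_Os12g19470.1, rested on 459 reads at 30°C, against 624 at 25°C.

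RCA did not pass in either genotype, although its counting error was small. In togr1-1 it had 519433 reads at 30°C, against 508025 at 25°C, a log2 ratio of 0.06 (interval 0.05 to 0.06). In the wild-type it had 412120 reads at 30°C, against 415645 at 25°C, a log2 ratio of 0.02 (0.01 to 0.02). A 2-fold change of RCA between these libraries was outside both intervals. The sign of these small ratios depends on the scaling, as with TMM factors they were -0.022 in togr1-1 and -0.078 in the wild-type.

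**Figure D2:**
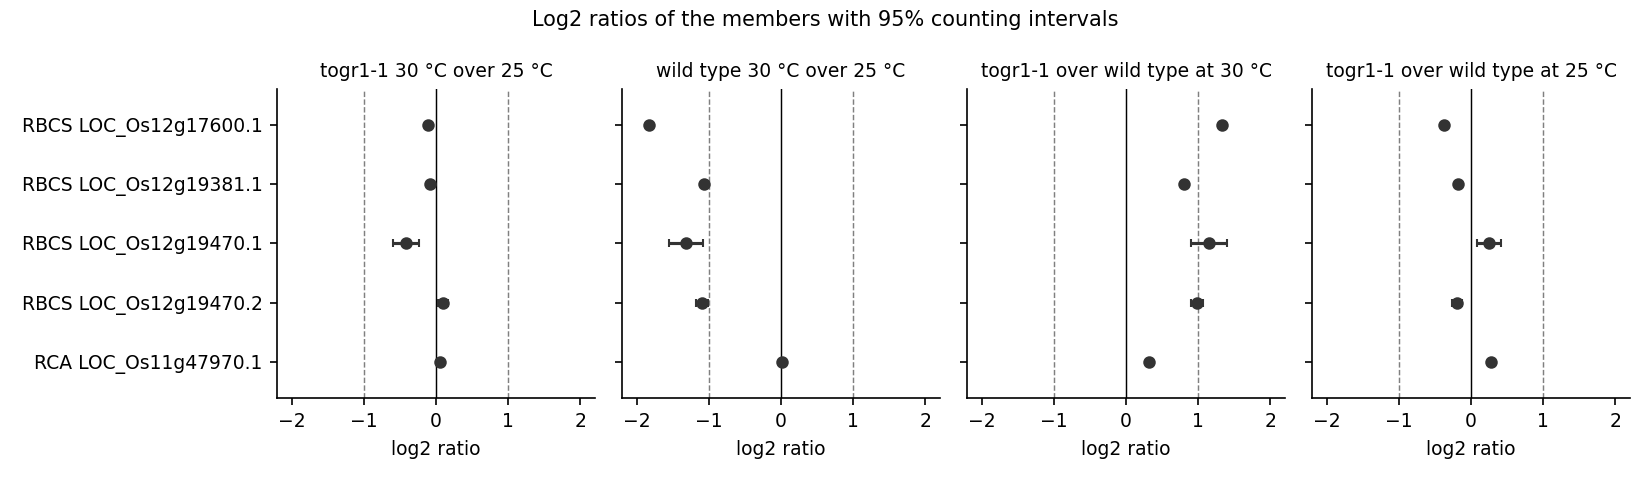
Log2 ratios of 5 models in the 4 comparisons of libraries, with 95% Clopper-Pearson intervals of counting error as bars and dashed lines at a 2-fold difference. The 4 RBCS models lie beyond the line in the wild-type between temperatures, with LOC_Os12g17600.1 at -1.82, and RCA lies within the lines in all panels.

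The difference between the temperature responses of the genotypes was itself tested with the same thresholds, using Fisher's exact test over all 4 read counts of a model. It passed for 2 of the 7 models, where 4.63% of 35204 models were called and 2.93% were called higher in togr1-1. For these, LOC_Os12g17600.1 and LOC_Os12g19470.2, the log2 ratio of 30 over 25°C was -0.11 and 0.09 in togr1-1. In the wild-type it was -1.82 and -1.09, so the difference was a fall in the wild-type with little change in togr1-1. The ratio of responses was 3.28 for LOC_Os12g17600.1 (log2 1.71, interval 1.69 to 1.74) and 2.27 for LOC_Os12g19470.2 (log2 1.18, interval 1.07 to 1.29). LOC_Os12g19381.1 lay just below the threshold, with a ratio of 1.98 (log2 0.99, interval 0.96 to 1.01), and passed it under each of the other scalings. For LOC_Os12g19470.1 the ratio was 1.87 (log2 0.90, interval 0.60 to 1.20). For RCA it was 1.03 (log2 0.04, interval 0.03 to 0.05). The summed RBCS reads gave a ratio of 2.46 (log2 1.30, interval 1.28 to 1.31).

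**Figure D3:**
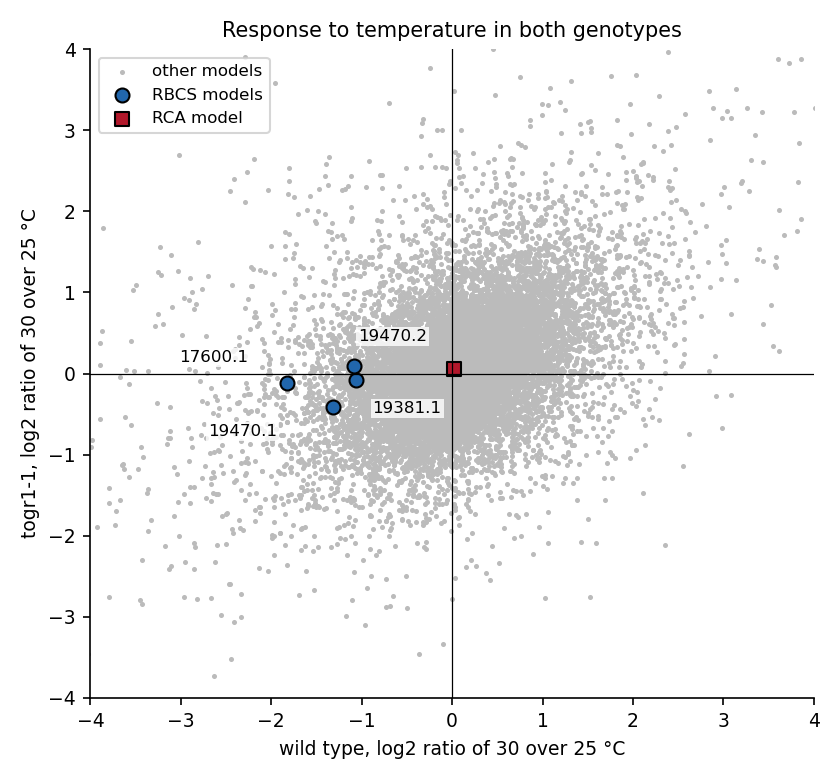
Log2 ratio of 30 over 25°C in the wild-type (x axis) and in togr1-1 (y axis) for the 16927 models with at least 100 reads over the 4 libraries and a read in each of them, of which 93 lie outside the axes. The RBCS models, labelled by the last digits of the locus, lie at the left near the line of no change in togr1-1, and the RCA model lies near the origin.

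Between the genotypes at 30°C, 2 of the 7 models passed, both higher in togr1-1, where 5.71% of 32450 models were called and 3.46% were called higher. LOC_Os12g17600.1, with 69837 reads in togr1-1, against 27311 in the wild-type, was 2.52-fold higher (log2 ratio 1.33, interval 1.31 to 1.35). LOC_Os12g19470.1 had 459 reads in togr1-1, against 204 in the wild-type, and was 2.22-fold higher (log2 ratio 1.15, interval 0.91 to 1.39). LOC_Os12g19470.2 missed the threshold at a ratio of 1.98 (log2 0.99), while the sum of both models of that locus passed it at a ratio of 2.01. With TMM factors or DESeq2 size factors the log2 ratio of LOC_Os12g19470.2 was 1.03 or 1.05, and it passed. LOC_Os12g19381.1 had a ratio of 1.75 and RCA a ratio of 1.24, and neither passed.

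At 25°C, 0 of the 7 models passed between the genotypes, where 4.25% of 32519 models were called. The ratio of togr1-1 to the wild-type was 0.769 for LOC_Os12g17600.1 (76937 against 98848 reads) and 0.882 for LOC_Os12g19381.1 (88818 against 99493 reads). LOC_Os12g19470.2 had a ratio of 0.872 (3154 against 3570 reads), while LOC_Os12g19470.1 lay on the other side of 1, at 1.19 (624 against 519 reads, interval 1.06 to 1.34). For RCA the ratio was 1.21 (508025 against 415645 reads). For the summed RBCS reads it was 0.827 (169539 against 202437 reads). None of these reached 2-fold. These ratios exceeded counting error, and there was no replicate to set them against.

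The 8 calls of members were in the 3 comparisons that use the library of the wild-type at 30°C, in which 8.21%, 5.71% and 4.63% of all models were called. The other comparisons, the temperatures in togr1-1 and the genotypes at 25°C, had 0 calls of members and 7.09% and 4.25% of all models called, so calls over all models were not limited to that library. Because the comparisons share libraries, they are not separate evidence of a difference. A spread between samples was also assumed in edgeR's exact test. At a coefficient of variation of 0.2, LOC_Os12g17600.1 in the wild-type was the only call held among the 4 comparisons of library pairs. In that comparison 1.63% of all models were called at 0.2. At 0.4 no member was held, where only 0.034% to 0.0832% of all models were called over the 4 comparisons.

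The balance within the RBCS family also differed between the wild-type libraries, which lay on opposite sides of those of togr1-1. Reads of near-identical genes may have been divided among these loci or left out, so shares of single loci are less certain than the sum. LOC_Os12g17600 held 44.7% and 45.4% of RBCS reads in togr1-1 at 30 and 25°C. In the wild-type it held 36.1% at 30°C (Wilson interval 35.7 to 36.4), against 48.8% at 25°C (48.6 to 49.1). LOC_Os12g19381 held 52.9% and 52.4% in togr1-1, against 61.5% and 49.1% in the wild-type, in the same order of temperatures. The ratio of LOC_Os12g17600.1 to LOC_Os12g19381.1 in RPKM was accordingly 0.810 and 0.830 in togr1-1, against 0.562 and 0.952 in the wild-type. The share of LOC_Os12g19470 stayed between 2.02% and 2.44% of RBCS reads in the 4 libraries.

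Relative to the small subunit, activase transcript was most abundant in the wild-type at 30°C. The ratio of RCA RPKM to summed RBCS RPKM was 2.72 and 2.45 in togr1-1 at 30 and 25°C, against 4.44 and 1.68 in the wild-type at 30 and 25°C. In reads the ratio was 5.44 in the wild-type at 30°C (Clopper-Pearson interval 5.40 to 5.48) and lay between 2.05 and 3.33 in the other libraries. As a ratio within a library it does not depend on the scaling between libraries. The RBCS sum holds no reads for LOC_Os12g19394, and reads of near-identical RBCS genes may have been left out. The ratios may therefore be too high, and whether activase transcript truly exceeded that of the small subunit was not tested.

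**Figure D4:**
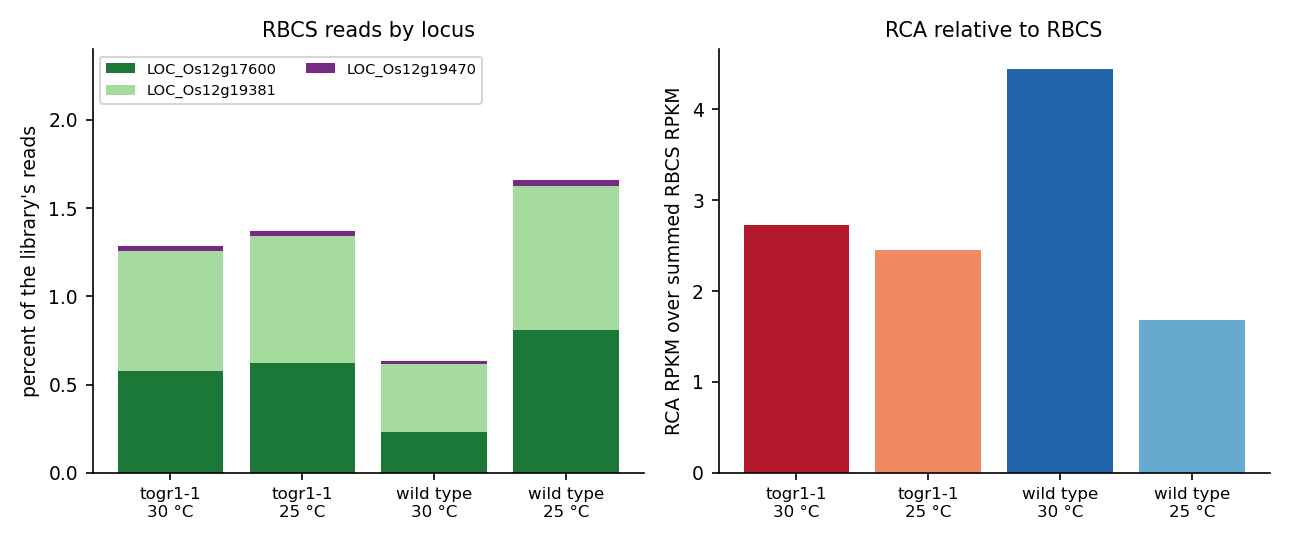
Left, percent of the reads of each library counted on 3 RBCS loci, stacked. Right, RCA RPKM divided by summed RBCS RPKM in each library, which is 4.44 in the wild-type at 30°C and between 1.68 and 2.72 in the others.

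The members were set beside other models of similar abundance. There were 81 models above 1000 RPKM in at least 1 library, with LOC_Os12g17600.1, LOC_Os12g19381.1 and RCA among them. In the wild-type 11 of the 81 were called lower at 30°C and 2 higher, with a median log2 ratio of -0.18. LOC_Os12g17600.1 had the 4th lowest ratio of the 81 and LOC_Os12g19381.1 the 10th lowest, while RCA was the 52nd. In togr1-1 6 of the 81 were called lower and 1 higher, with a median log2 ratio of -0.25, and LOC_Os12g17600.1 and LOC_Os12g19381.1 were the 48th and 51st lowest. The median of the abundant models was thus below 0 in both genotypes, while both RBCS models lay below that median in the wild-type and above it in togr1-1.

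A list of 11 loci for other Calvin cycle enzymes was counted in the same way by locus. These enzymes reduce the product of Rubisco to sugar phosphates and regenerate its substrate. The files do not name these loci, and the list was drawn up from general knowledge of the pathway in rice. It was made with earlier results of these data known. Between temperatures 0 of 11 passed in togr1-1, where 7.87% of all loci were called. The median log2 ratio there was -0.28, with 9 of 11 ratios below 0. In the wild-type 1 of 11 passed, lower at 30°C, where 9.09% of loci were called and 4.50% were called lower, and the median log2 ratio was -0.31 with all 11 ratios below 0. The difference of responses passed for 1 of 11, higher in togr1-1, where 5.37% of loci were called and 3.50% were called higher, with a median log2 ratio of 0.17. Between genotypes at 30°C 1 of 11 was higher in togr1-1, where 6.42% of loci were called and 4.08% were called higher. At 25°C 1 of 11 was lower in togr1-1, where 4.70% of loci were called and 3.15% were called lower. The RBCS loci LOC_Os12g17600, LOC_Os12g19381 and LOC_Os12g19470, counted by locus, all passed in the wild-type, and RCA did not.

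A single locus of that list, LOC_Os04g38600, made each of these calls. Over 4 models it had 1310 and 831 reads in togr1-1 at 30 and 25°C, against 521 and 1796 in the wild-type at 30 and 25°C. It was named after its values were seen. Like LOC_Os12g17600, LOC_Os12g19381 and LOC_Os12g19470 it was lowest in the wild-type at 30°C. Unlike them it was also lower in togr1-1 than in the wild-type at 25°C by the 2-fold threshold. In togr1-1 its log2 ratio of 30 over 25°C was 0.68, the highest of the list and below the 2-fold threshold. The log2 ratio of the summed RBCS reads there was -0.09. LOC_Os04g38600 was the least read locus of the list, with 4458 reads over the libraries.

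Among 16065 other loci with at least 100 reads in all and reads in each library, those closest in pattern to the RBCS sum over the 4 libraries were LOC_Os07g03840 and LOC_Os04g52270. Likeness was the root mean square difference of log2 read counts, scaled by library size, after centring on the mean of the libraries, which was 0.048 for LOC_Os07g03840 and 0.054 for LOC_Os04g52270. LOC_Os07g03840 had 157 and 173 reads in togr1-1 at 30 and 25°C, against 80 and 195 in the wild-type at 30 and 25°C. The loci closest to RCA were LOC_Os09g36830 and LOC_Os06g15810, with a difference of 0.012 and 0.013. LOC_Os09g36830 had 582 and 562 reads in togr1-1, against 466 and 469 in the wild-type. With 4 points each, such likeness is a description, and the counts are far smaller than those of the members.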

How the data were processed

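Leaf poly(A) RNA of 4 pooled samples was sequenced by the study on the Illumina HiSeq platform. The authors deposited raw read counts per transcript model, with no normalization, and RPKM values, in which a count is scaled by the length of its model and by the library size. The deposited length of each model, an other quantity, was used as given. The aligner, genome build and annotation release are not given in the sources used here. The deposited tables also hold the authors' own log2 ratios, p-values and FDR, which were not used.

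Samples were grouped by their labels. Models absent from the table of a genotype were set to 0 reads there. Libraries were compared pairwise by the exact conditional binomial test (two-sided, with library totals as scale), and responses by Fisher's exact test, each with Benjamini-Hochberg adjustment over all models (or all loci). Calls needed a 2-fold difference and an adjusted p-value no larger than 0.001, with no pseudocount. edgeR's quasi-likelihood test was not used, since a comparison of single libraries and the difference of responses leave no residual degrees of freedom. An additive fit of genotype and temperature, which leaves 1, was not run. Shares carry Wilson intervals, ratios of reads Clopper-Pearson intervals, and ratios of responses conditional exact intervals, all at 95%. They cover counting error only, since there was 1 library per condition. Reads are not independent molecules, so the intervals may be too narrow even for counting error. Library totals of 11959859 to 12371522 reads make depth differences small. The tests were run on simulated counts with planted changes and counting error alone, which cannot show how they behave with a spread between plants.

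The genes named are all models of the 6 loci and the 2 loci closest in pattern to the RBCS sum and to RCA. In addition, LOC_Os04g38600 was named after its values were seen, and TOGR1 as the mutated gene. These members and lists were chosen with earlier results of these data known. Alternatives were TMM factors, DESeq2 size factors, totals without the members, a minimum of 10 reads, 2-fold alone, 4-fold, sums by locus, an assumed coefficient of variation of 0.2 or 0.4 in edgeR's exact test, and RPKM sums. Of 28458 loci, 0 matched the RefSeq table of assembly ASM3414082v1, so no sequences or positions are given. Versions were Python 3.11.15, numpy 2.4.6, scipy 1.17.1, pandas 2.3.3, matplotlib 3.10.9, R 4.3.3, edgeR 4.0.16 and DESeq2 1.42.0.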

Additional observations from a re-analysis of the deposited data

Results flagged for a closer look

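The temperature responses of LOC_Os12g17600.1 and LOC_Os12g19470.2 differed between the genotypes in Fisher's exact test over all 4 read counts of each model. The log2 ratio of the response in togr1-1 over that in the wild-type was 1.71 for LOC_Os12g17600.1 and 1.18 for LOC_Os12g19470.2. The test covers counting error alone, and with 1 library per condition the difference was not tested across plants.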

How the results depend on the processing

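The number of the 7 models called changed with the threshold and with an assumed spread. Under each of the other scalings it rose from 2 to 3 between genotypes at 30°C and for the difference of responses. It was unchanged by these scalings in the other comparisons, and by the minimum of 10 reads in all. Sums by locus called 3 of 5 loci in the wild-type between temperatures, and 2 of 5 between genotypes at 30°C and for the difference of responses. In the wild-type between temperatures the number of models was 4, against 0 with a 4-fold threshold, 1 in edgeR's exact test with an assumed coefficient of variation of 0.2 and 0 with 0.4. Between genotypes at 30°C it was 2, against 4 with a 2-fold difference alone and 0 with a 4-fold threshold or with either assumed coefficient of variation. In togr1-1 between temperatures it was 0, against 1 with a 2-fold difference alone, and for the difference of responses 2, against 3 with a 2-fold difference alone and 0 with a 4-fold threshold. The models added by a 2-fold difference alone were LOC_Os02g05830.2 (0 against 2 reads) and LOC_Os12g17600.2 (1 against 2 reads) at 30°C, both lower in togr1-1, LOC_Os02g05830.2 (0 against 4 reads) in togr1-1 between temperatures, and LOC_Os02g05830.2 in the difference of responses, all at the limit of counting. Over all models the share called ranged from 4.25% to 8.21% over the 5 comparisons, against 30.9% to 38.4% with a 2-fold difference alone, 1.52% to 2.93% with 4-fold. Over the 4 comparisons of library pairs it was 0.584% to 1.63% with a coefficient of variation of 0.2 and 0.034% to 0.0832% with 0.4, and the difference of responses was not run with an assumed spread. The log2 ratio of RCA (LOC_Os11g47970.1) changed sign with TMM factors, to -0.022 in togr1-1 and -0.078 in the wild-type, and with DESeq2 size factors in the wild-type, to -0.081, because these factors shift all ratios of a pair alike, by -0.08 and -0.10 in togr1-1 and the wild-type with TMM. That of LOC_Os02g05830.2 between genotypes at 25°C, from 4 reads in each library, was -0.018 and became 0.013 with TMM factors and 0.0044 with DESeq2 size factors, and carries no direction at that depth. RPKM sums moved no ratio of summed RBCS beyond its counting interval. No paired analysis was possible because each comparison between conditions has 1 library on each side and the labels number no replicates, and leaving out a library would empty its condition. The counts cannot show how much of any difference would recur in other pools.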
